A study of Mus musculus with 5 samples.

Results

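The 10 genes described here handle extracellular ATP and adenosine: Entpd1, Nt5e, Adora2a, Adora2b, Ada, Adk, P2rx7, P2rx4, Dpp4 and Cd38. They were chosen by name from the 24417 genes with a symbol in the count table, and all 10 were found in it. The table holds bulk RNA-seq of sorted T cells from the lamina propria of the mouse colon, the connective tissue under the gut epithelium. Foxp3 reporter-null cells, sorted as Thy1.1+, gave 3 libraries, and Treg cells, sorted as Foxp3-DTR-GFP+, gave 2. Mice of both groups had the same genotype, with 1 allele named Foxp3DTR-GFP and the other named loxp-Thy1.1-STOP-loxp-GFP. Per these names the first allele carries a diphtheria toxin receptor with GFP at Foxp3, and the second holds Thy1.1 and a stop cassette between loxP sites. Thy1.1 marks cells that have switched on the allele without functional Foxp3. The 2 groups were thus sorted on different reporters, and the first reporter-null library joins the numbers 1 and 4 in its label. The labels give no age, and do not say whether the libraries came from separate animals, so that each p-value measures the spread between these libraries only.

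ATP leaks from stressed or dying cells and acts as a danger signal, while adenosine made from it quiets T cells. The ectoenzyme CD39, encoded by Entpd1, trims ATP and ADP to AMP, and CD73, encoded by Nt5e, turns AMP into adenosine. Both are known on mouse regulatory T (Treg) cells, where the pair serves as a means of suppression. Adenosine then acts through receptors that raise cyclic AMP, or is taken up by nucleoside transporters and removed by adenosine kinase and adenosine deaminase.

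The total count was 17670420 to 22395169 per library. Foxp3 stood at 75.7, 80.7 and 81.3 CPM in reporter-null replicates 1, 2 and 3, against 764 and 770.0 CPM in Treg replicates 1 and 2, and Thy1 at 269 to 300.5 CPM in the reporter-null libraries, against 18.8 and 21.4 CPM in the Treg libraries. CPM is the usual per-library share of gene counts, with library sizes scaled by TMM factors. The T cell gene Cd3e was at 1039.9 to 1260.2 CPM in reporter-null libraries and at 1036 to 1070.2 CPM in Treg libraries. Of the 6 T cell markers with a row, Cd4 alone was called, higher in reporter-null cells. Not called were Cd3e (log2 fold change 0.13, reporter-null minus Treg), Cd3g (0.49), Cd28 (0.37), Cd3d (-0.23) and Cd5 (-0.55). Only Cd3e and Cd3d overlapped between the groups. Reporter-null replicate 2 and Treg replicate 1 stood apart in transcripts of other cells. The summed level of 8 epithelial markers was 1049.6 CPM in reporter-null replicate 2, against 19.1 and 24.3 CPM in reporter-null replicates 1 and 3, and was 224 and 41.8 CPM in Treg replicates 1 and 2. All 8 were detected and none was called between the groups. Most of the sum in Treg replicate 2 was Epcam, at 34.3 CPM, a gene at 1.08 and 0.89 CPM in reporter-null replicates 1 and 3. The 8 markers of B and plasma cells summed to 394 to 906 CPM in reporter-null libraries and 429 to 1436 CPM in Treg libraries. These sums were again highest in reporter-null replicate 2 and Treg replicate 1. Most of each sum was Jchain, at 362 to 807 CPM in reporter-null libraries and 392 to 1333 CPM in Treg libraries. Of the 7 tested 1 was called, Cd79b, lower at 7.42, 7.10 and 6.81 CPM against 20.4 and 19.2 CPM in Treg libraries. Across genes, log2 CPM of reporter-null replicate 2 correlated at 0.921 and 0.908 with replicates 1 and 3, which correlated at 0.984 with each other.

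In reporter-null cells transcripts of adenosine kinase fell to 0.479 times the Treg level and those of the peptidase Dpp4 rose to 2.00 times it, while Entpd1 fell modestly and Nt5e showed no detectable difference. Of the 10 genes, all of which passed the filter on low counts, 3 differed at an adjusted p under 0.05 in edgeR's quasi-likelihood test, with Benjamini-Hochberg adjustment over all 14164 genes tested. Dpp4 was higher, and Adk and Entpd1 were lower. Over all genes tested 8.79% were called, 4.07% higher and 4.72% lower in reporter-null cells. The median log2 fold change, reporter-null minus Treg throughout, was -0.15 over the 10 genes and 0.02 over all genes tested. In 6 of the 10 the libraries of the 2 groups did not overlap, as was the case for 40.8% of all genes tested.

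**Figure D1:**
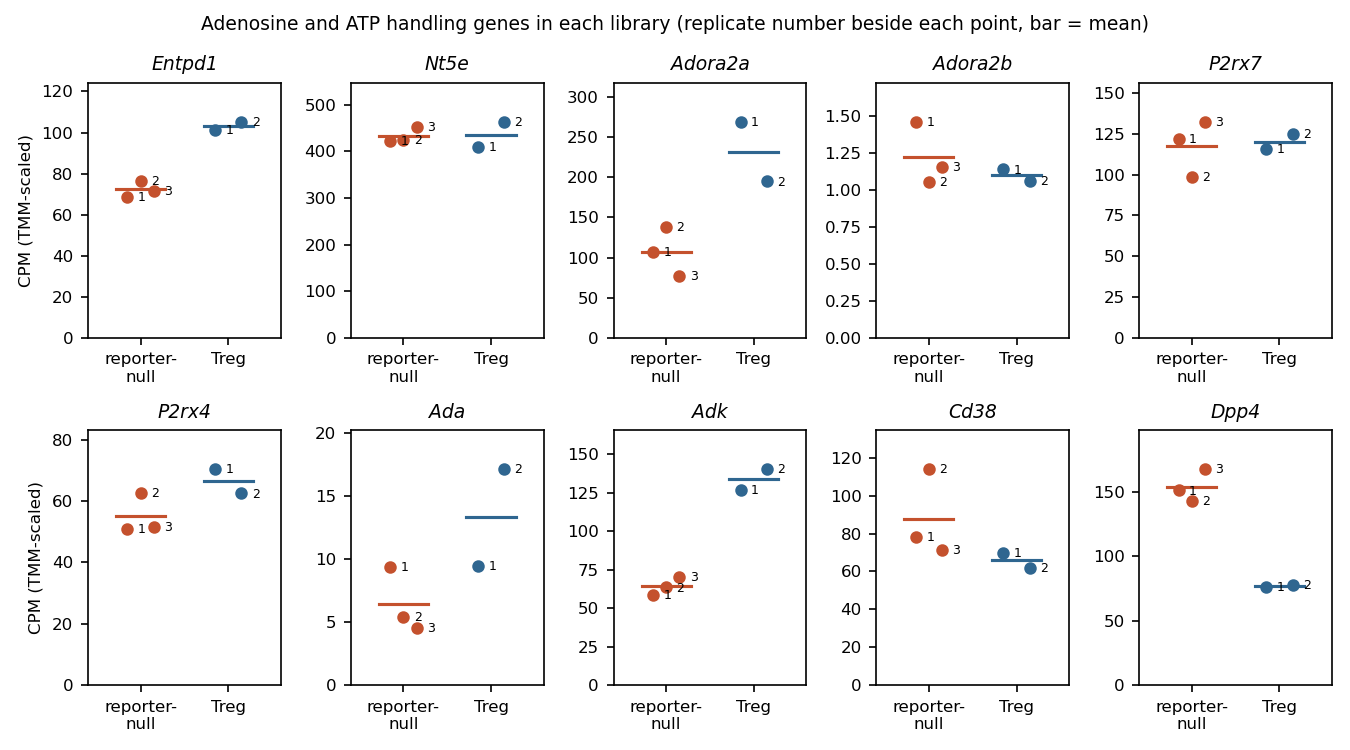
Level of each gene in CPM (vertical axis, linear from 0) in the 3 reporter-null libraries (left, orange) and the 2 Treg libraries (right, blue), each point a library with its replicate number and each bar a group mean. Adk, Dpp4 and Entpd1 separate the groups with little spread, Adora2a separates them with wide spread, and Nt5e and P2rx7 overlap.

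**Figure D2:**
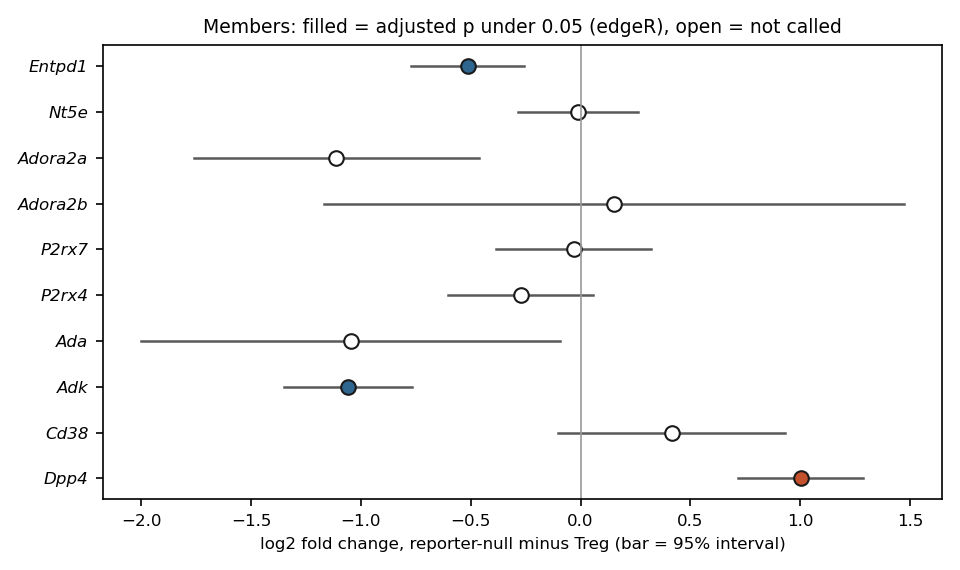
Log2 fold change of each gene, reporter-null minus Treg, with its unadjusted 95% interval (bar); filled points passed an adjusted p of 0.05. Adk and Dpp4 lie about 1 log2 unit from 0 on opposite sides, and the interval of Adora2b spans both directions widely.

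The stretches of DNA around the RefSeq start sites of the 3 called genes (250 bases before and 50 after the start, GRCm38.p6, on the gene's own strand) are printed because these genes passed the test. The counts do not separate transcripts by start site, and both starts are given for Adk and for Entpd1. Capitals mark 6 motifs searched on both strands: the forkhead motif TGTTTAC, the Runx motif TGTGGT, the cyclic AMP response element TGACGTCA, the GC box with letters GGGCGG, the CCAAT box, and the TATA box searched as TATAAA.
Adk, upstream start, chr14:21052324-21052623, plus strand: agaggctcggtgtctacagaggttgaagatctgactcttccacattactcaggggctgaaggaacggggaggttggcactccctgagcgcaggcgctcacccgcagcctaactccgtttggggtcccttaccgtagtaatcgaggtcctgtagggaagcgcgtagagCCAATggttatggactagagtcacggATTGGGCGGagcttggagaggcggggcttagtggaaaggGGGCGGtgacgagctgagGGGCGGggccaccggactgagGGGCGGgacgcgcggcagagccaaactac
Adk, downstream start, chr14:21075902-21076201, plus strand: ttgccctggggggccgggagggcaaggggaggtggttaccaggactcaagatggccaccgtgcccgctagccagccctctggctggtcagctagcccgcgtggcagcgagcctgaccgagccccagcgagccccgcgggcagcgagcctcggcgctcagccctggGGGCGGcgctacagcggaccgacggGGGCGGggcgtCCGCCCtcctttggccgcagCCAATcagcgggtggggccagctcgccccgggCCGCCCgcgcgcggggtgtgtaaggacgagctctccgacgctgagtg
Dpp4, chr2:62412182-62412481, minus strand: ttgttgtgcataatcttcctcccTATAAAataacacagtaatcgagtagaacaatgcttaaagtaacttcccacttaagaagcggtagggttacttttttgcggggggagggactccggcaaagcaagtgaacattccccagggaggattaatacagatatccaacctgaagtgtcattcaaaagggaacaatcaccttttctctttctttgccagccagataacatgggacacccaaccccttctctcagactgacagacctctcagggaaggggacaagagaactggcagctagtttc
Entpd1, upstream start, chr19:40612116-40612415, plus strand: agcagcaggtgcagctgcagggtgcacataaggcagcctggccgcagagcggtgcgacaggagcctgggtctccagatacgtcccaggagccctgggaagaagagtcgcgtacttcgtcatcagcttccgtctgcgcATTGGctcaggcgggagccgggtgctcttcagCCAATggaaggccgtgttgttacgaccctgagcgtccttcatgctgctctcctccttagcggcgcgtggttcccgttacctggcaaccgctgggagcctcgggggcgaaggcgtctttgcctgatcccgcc
Entpd1, downstream start, chr19:40659520-40659819, plus strand: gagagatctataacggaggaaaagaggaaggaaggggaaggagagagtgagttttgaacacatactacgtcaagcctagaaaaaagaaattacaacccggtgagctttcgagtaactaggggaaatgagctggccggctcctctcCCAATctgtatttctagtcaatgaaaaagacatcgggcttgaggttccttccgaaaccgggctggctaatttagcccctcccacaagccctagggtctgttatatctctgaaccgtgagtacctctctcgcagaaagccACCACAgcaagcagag

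Both Adk windows are rich in G and C (61.7% and 75.0%) and hold 4 GC boxes each. At least 1 GC box was found in 35.7% of the 32851 RefSeq windows, and the share with 4 was not counted. The upstream Adk window also has 2 CCAAT boxes, 1 of which shares letters with a GC box, and the downstream window has 1. Of all windows 37.4% hold a CCAAT box. The Dpp4 window has a G and C share of 45.3% and matched only the TATA box, which 13.6% of windows hold and which lies here near its far upstream end. At Entpd1 the upstream window has 2 CCAAT boxes, and the downstream window has 1 together with 1 Runx match, a motif in 16.8% of windows. Across the 12 windows of 9 genes that matched the RefSeq table there was no forkhead match (3.65% of all windows) and no cyclic AMP response element (1.79%), which says only that these letters are not in these windows. Adora2a had no entry.

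Of the 2 surface enzymes that make adenosine in turn, Entpd1 was lower in reporter-null cells and Nt5e showed no detectable difference. Entpd1 was at 68.5, 76.6 and 71.6 CPM in reporter-null replicates 1, 2 and 3, against 101 and 105 CPM in Treg replicates 1 and 2. The groups did not overlap, and the log2 fold change was -0.51 (SE 0.109, adjusted p = 0.0335), a level of 0.70 times that of Treg cells. This call was lost in 4 of the 5 fits that left out a library. The adjusted p was 0.165 when Treg replicate 1 was dropped and 0.170 when Treg replicate 2 was. Dropping reporter-null replicate 1 gave 0.170 and dropping reporter-null replicate 3 gave 0.0541, with fold changes between -0.54 and -0.48 in these 4 fits. Its lowest and highest adjusted p over 16 alternatives were 0.000339 and 0.170. Nt5e was at 422, 424 and 453 CPM in reporter-null libraries, against 409 and 463 CPM in Treg libraries. Its 2 groups overlapped fully, the log2 fold change was -0.01 (SE 0.115, adjusted p = 0.975), and the 95% interval of -0.28 to 0.26 bounds the difference. In a bulk sample, fewer cells with a transcript and less transcript per cell cannot be told apart.

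The ratio of Nt5e to Entpd1 counts within a library does not depend on scaling. It was 6.16, 5.53 and 6.33 in reporter-null replicates 1, 2 and 3, against 4.04 and 4.40 in Treg replicates 1 and 2, a difference of 0.51 on the log2 scale. Every reporter-null library lay above both Treg libraries. With 3 against 2 libraries an exact two-sided permutation test cannot go below p = 0.2, which is the value it gave.

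Of the further genes on the ectonucleotidase list, Acpp rose the most clearly. It encodes an acid phosphatase whose membrane-bound form can make adenosine from AMP, as known from mouse sensory neurons. Its level was 109, 136 and 82.4 CPM in reporter-null replicates 1, 2 and 3, against 19.1 and 21.7 CPM in Treg replicates 1 and 2. All reporter-null libraries lay far above both Treg libraries (log2 fold change 2.42, SE 0.235, adjusted p = 0.0022), and the call held in all 16 alternatives. Of the 13 genes tested on the ectonucleotidase list, Entpd1 and Nt5e included, Acpp was higher and Entpd1 lower. Whether each product on this list acts at the cell surface was not examined. Cant1, a calcium-activated nucleotidase, was at 116, 164 and 67.0 CPM in reporter-null libraries and at 85.3 and 91.0 CPM in Treg libraries (log2 fold change 0.39, adjusted p = 0.64). Its log2 fold change was 0.05 when reporter-null replicate 2 was dropped and 0.67 when reporter-null replicate 3 was. Entpd6 was at 52.0 ± 7.24 CPM in reporter-null and 57.6 ± 2.40 CPM in Treg cells (SD, n = 3 and 2, log2 fold change -0.15, adjusted p = 0.627).

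Among adenosine receptors, the one that was abundant was lower in reporter-null cells without passing the threshold. Adora2a encodes a receptor of high affinity for adenosine that raises cyclic AMP in T cells. It stood at 107, 138 and 77.3 CPM in reporter-null replicates 1, 2 and 3, against 269 and 195 CPM in Treg replicates 1 and 2. The groups did not overlap, but both spread widely, and in each the library with the highest epithelial sum was also the highest for Adora2a. The part of other cells in this was not tested. The log2 fold change was -1.11 (SE 0.265, 95% interval -1.76 to -0.46, adjusted p = 0.0598). Without Treg replicate 1 the log2 fold change was -0.86, and without Treg replicate 2 it was -1.32. Dropping reporter-null replicate 1 (adjusted p = 0.202) or reporter-null replicate 3 (0.0735) gave no call. Dropping reporter-null replicate 2 gave -1.35 and a call (adjusted p = 0.0025). DESeq2 (0.000857) and limma-voom (0.0407) called it too, and the 16 alternatives spanned adjusted p-values of 4.42e-06 to 0.322.

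The low-affinity receptor gene Adora2b had 27, 22 and 26 counts in reporter-null libraries and 21 and 23 counts in Treg libraries, or 1.23 ± 0.212 CPM in reporter-null and 1.10 ± 0.0542 CPM in Treg cells (SD, n = 3 and 2). At this depth a difference was not detectable (log2 fold change 0.15, 95% interval -1.17 to 1.47, adjusted p = 0.913). Adora1, the receptor that lowers cyclic AMP, was at or under 0.88 CPM in each library, and Adora3 had no count in any. Of the 3 adenosine receptor genes tested, edgeR called 0, with 1 at an unadjusted p under 0.05. DESeq2 and limma-voom called 1 each, which was Adora2a. Over all genes, 3199 of 14164 had an unadjusted p under 0.05 in edgeR's test. DESeq2 called 2325 of 19834 genes fitted, and limma-voom called 1214 of 14164.

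Of the 2 enzymes that remove adenosine inside the cell, the kinase had fewer transcripts in reporter-null cells and the deaminase was not called. Adk encodes adenosine kinase, which returns adenosine to AMP. It was at 58.8, 63.5 and 70.2 CPM in reporter-null replicates 1, 2 and 3, against 127 and 140.5 CPM in Treg replicates 1 and 2. The highest reporter-null library was well under the lowest Treg library, and the log2 fold change was -1.06 (SE 0.123, adjusted p = 0.00383), or 0.479 times the Treg level. Leaving out any 1 library kept the call, with fold changes between -1.13 and -0.98. The Adk call was lost with a replicate block by the number in the titles (adjusted p = 0.0694). Ada encodes adenosine deaminase, which turns adenosine into inosine and whose loss in humans causes severe immunodeficiency. It was much lower in counts, with 173, 113 and 101 in reporter-null libraries and 174 and 370 in Treg libraries. The resulting 9.37, 5.42 and 4.49 CPM in reporter-null cells, against 9.45 and 17.1 CPM in Treg cells, nearly met at reporter-null replicate 1 and Treg replicate 1. The log2 fold change of -1.05 (SE 0.4, adjusted p = 0.181) was not called, and it moved to -0.55 when Treg replicate 2 was dropped, -1.41 when Treg replicate 1 was and -1.42 when reporter-null replicate 1 was.

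Of 23 genes tested for enzymes that make, salvage or break down adenosine and its relatives inside the cell, Adk fell and none rose in edgeR's test. An unadjusted p under 0.05 was found for 11 of the 23, beside 3199 of 14164 over all genes tested. DESeq2, fitted to every gene with a count, called 7 of the 27 genes of this list with a row. Over all 19834 genes it fitted, it called 2325. The most abundant genes not called were Hprt, which salvages purine bases (-0.31, adjusted p = 0.382), and Ahcyl1 (0.34, adjusted p = 0.135) and Ahcyl2 (-0.39, adjusted p = 0.13), relatives of the enzyme that releases adenosine from S-adenosylhomocysteine. The median log2 fold change of these 23 genes was -0.11.

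Among nucleoside transporters, which move adenosine across the membrane, Slc28a2 was lower in reporter-null cells. Slc28a2, the concentrative transporter for purine nucleosides, was at 78.3, 72.7 and 90.1 CPM in reporter-null replicates 1, 2 and 3, against 151 and 150.5 CPM in Treg replicates 1 and 2. The groups were clearly apart, and the log2 fold change was -0.91 (SE 0.125, adjusted p = 0.007). Dropping Treg replicate 1 (0.0753), Treg replicate 2 (0.0679) or reporter-null replicate 1 (0.0532) ended the call, and the 16 alternatives gave 9.91e-10 to 0.0779. Its RefSeq neighbour Slc28a2b is a close copy, so that reads may be shared. Slc29a1, the equilibrative transporter, was at 218, 186 and 185 CPM in reporter-null libraries, against 135 and 148 CPM in Treg libraries, without overlap (0.47, SE 0.126, adjusted p = 0.0695). It passed once reporter-null replicate 2 was dropped (0.0391) and with DESeq2 (0.00327), the lowest of the 16 alternatives, whose highest was 0.385. Slc29a1 counts were 2.78, 2.56 and 2.06 times those of Slc28a2 in reporter-null replicates 1, 2 and 3, against 0.896 and 0.983 times in Treg replicates 1 and 2. The exact two-sided permutation p of this ratio was 0.2, the smallest possible here, for each of the 2 ratios compared. Of the 7 transporter genes tested 1 was called, and Slc29a3 (0.13, adjusted p = 0.71) and Slc28a1 (-0.01, adjusted p = 0.992) were not.

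Receptors gated by ATP itself gave little sign of a difference. P2rx7 encodes a channel that opens at high extracellular ATP and can kill T cells. It was at 122, 98.8 and 132 CPM in reporter-null replicates 1, 2 and 3, against 116 and 125 CPM in Treg replicates 1 and 2. The ranges overlapped fully (log2 fold change -0.03, 95% interval -0.38 to 0.32, adjusted p = 0.937). P2rx4, which encodes a channel that opens at lower ATP and is the next gene to P2rx7 in the RefSeq annotation, was at 50.9, 62.7 and 51.5 CPM in reporter-null libraries, against 70.5 and 62.5 CPM in Treg libraries. Reporter-null replicate 2 lay just above Treg replicate 2 (-0.27, 95% interval -0.60 to 0.06, adjusted p = 0.315). Its gene overlaps Camkk2, which rose (37.3 ± 6.13 CPM in reporter-null and 21.0 ± 2.03 CPM in Treg cells, 0.82, adjusted p = 0.0418), so reads where they overlap cannot be assigned without strand. Only 3 of the 7 P2X genes passed the filter, the third being P2rx6 (0.37, adjusted p = 0.809). Its direction turned to -0.34 when reporter-null replicate 2 was dropped, and its log2 fold change was 0.003 when Treg replicate 1 was and 0.87 when Treg replicate 2 was. Of these 3, edgeR called 0, with 0 at an unadjusted p under 0.05, and DESeq2 and limma-voom called 0.

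Among enzymes that use extracellular NAD, 2 relatives fell. Art2b and Art2a-ps belong to a pair of close copies whose proteins use extracellular NAD to ADP-ribosylate P2X7, which opens the channel in mice; Art2a-ps is named as a pseudogene in the table. Art2b was at 3.68, 3.55 and 6.27 CPM in reporter-null replicates 1, 2 and 3, against 30.1 and 46.3 CPM in Treg replicates 1 and 2. No reporter-null library came near the Treg libraries (log2 fold change -3.08, SE 0.321, adjusted p = 0.00277). Art2a-ps was at 59.5, 66.7 and 67.3 CPM in reporter-null libraries, against 141 and 139 CPM in Treg libraries (-1.12, SE 0.110, adjusted p = 0.00215). The sources do not say how reads were divided between these copies, and each level is uncertain. Both calls held when any 1 library was left out.

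Cd38, which breaks down extracellular NAD and so competes for the same substrate, was not called. It was at 78.4, 114 and 71.2 CPM in reporter-null replicates 1, 2 and 3, against 69.9 and 62.0 CPM in Treg replicates 1 and 2. The lowest reporter-null library was close to the highest Treg library, and the log2 fold change was 0.41 (SE 0.216, 95% interval -0.10 to 0.93, adjusted p = 0.329). Reporter-null replicate 2 set much of it: without that library the log2 fold change was 0.17 (adjusted p = 0.525). That library also had the highest reporter-null sums of the epithelial markers and of the B and plasma cell markers, as given above, and the part of such cells in the Cd38 level was not tested. Of the 5 enzymes of extracellular NAD that were tested, Art2b and Art2a-ps were lower. Art3 (0.11, adjusted p = 0.937) and Art4 (-2.54, adjusted p = 0.101), relatives of Art2b, were not called, and Art4, under 1.2 CPM in every library, passed once reporter-null replicate 2 was dropped (0.0425, the lowest of 16 alternatives, the highest being 0.397). The direction of Art3 rested on single libraries, at -0.34 when Treg replicate 1 was dropped, 0.77 when Treg replicate 2 was and -0.22 when reporter-null replicate 3 was.

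Dpp4 encodes CD26, a surface peptidase that trims chemokines and other peptides and, in humans though not in mice, anchors adenosine deaminase. It was at 151, 143 and 168 CPM in reporter-null replicates 1, 2 and 3, against 76.1 and 77.7 CPM in Treg replicates 1 and 2. All reporter-null libraries lay far above both Treg libraries, which were nearly equal (log2 fold change 1.003, SE 0.119, adjusted p = 0.00416), a level of 2.00 times that of Treg cells. With a single Treg library left beside all 3 reporter-null libraries the call was lost at nearly the same fold change, with an adjusted p of 0.0634 (log2 fold change 0.99) when replicate 1 was dropped and 0.0544 (1.02) when replicate 2 was. With Treg replicate 1 and reporter-null replicate 2 both left out it was called (6.35e-05). Adjusted p-values for Dpp4 spanned 1.04e-15 to 0.082 over the 16 alternatives. Of the 5 genes of this peptidase family tested, Dpp4 and Dpp9 rose. The cytosolic Dpp9 was at 97.3, 98.3 and 82.2 CPM in reporter-null libraries, against 61.2 CPM in each Treg library (log2 fold change 0.60, adjusted p = 0.0335). Dpp9 was not called once Treg replicate 1 (0.208), Treg replicate 2 (0.171) or reporter-null replicate 1 (0.1502) was dropped, and its alternatives gave 0.000498 to 0.208. Dpp8 (0.13, adjusted p = 0.635), Prep (0.25, adjusted p = 0.479) and Dpp7 (-0.47, adjusted p = 0.308) were not called.

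**Figure D3:**
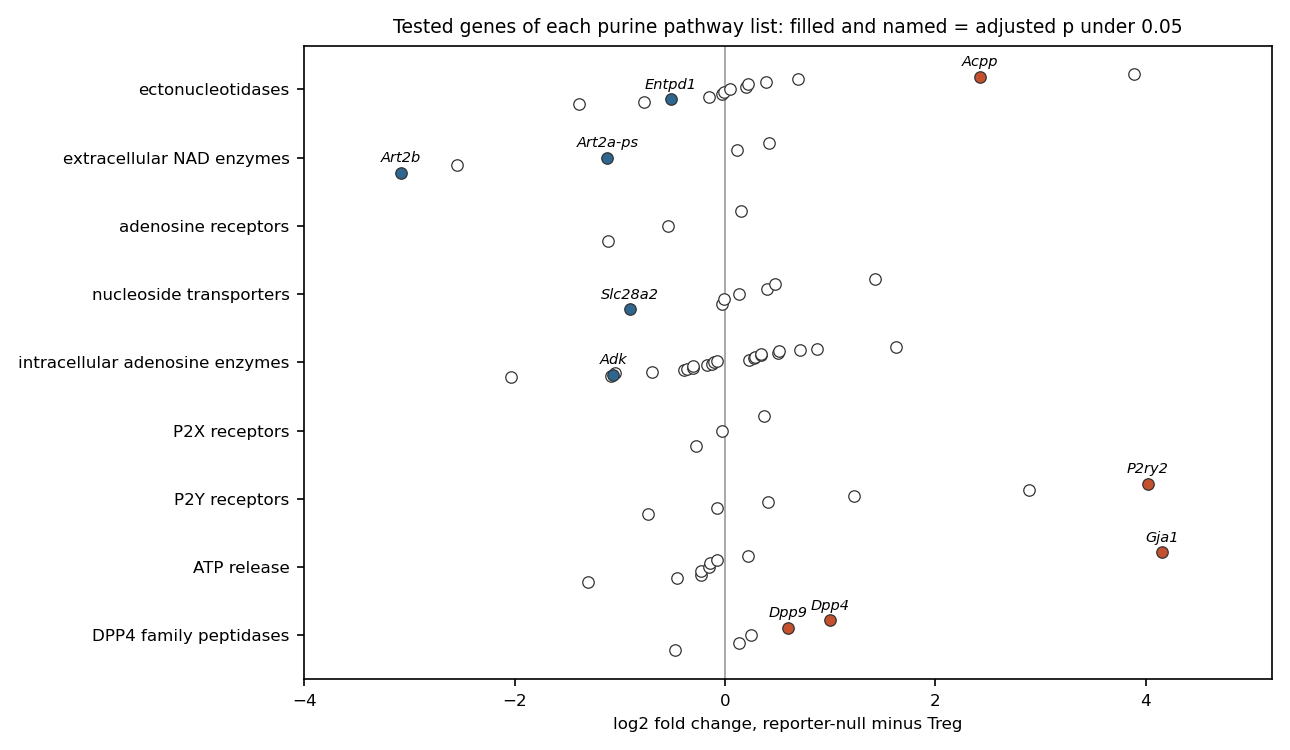
Log2 fold change of each tested gene, reporter-null minus Treg (horizontal axis), by pathway list; filled, named points passed an adjusted p of 0.05 and open points did not. The called genes are scattered over 7 lists in both directions, with Art2b at -3.08 and Gja1 at 4.15 as the widest.

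Genes for ATP release and for P2Y receptors completed the pathway. Gja1, which encodes the channel protein connexin 43, was at 80.7, 74.6 and 85.3 CPM in reporter-null replicates 1, 2 and 3, against 2.23 and 6.70 CPM in Treg replicates 1 and 2. The log2 fold change was 4.15 (SE 0.496, adjusted p = 0.0111), and dropping reporter-null replicate 1 gave 0.0548, where the 16 alternatives spanned 1.82e-40 to 0.121. The size of the Gja1 difference depended on the Treg libraries, with a log2 fold change of 3.58 when Treg replicate 1 was dropped and 5.17 when Treg replicate 2 was. The 6 fibroblast markers summed to 12.3, 100.5 and 8.85 CPM in reporter-null replicates 1, 2 and 3, against 42.4 and 9.94 CPM in Treg replicates 1 and 2. The part of fibroblasts, which also express Gja1, in its level was not tested. Panx1, the pannexin channel through which T cells release ATP, was at 105 ± 14.5 CPM in reporter-null and 144 ± 3.53 CPM in Treg cells (-0.46, adjusted p = 0.105). It passed with DESeq2 (0.0439) and once reporter-null replicate 2 was dropped (0.0317, the lowest of 16 alternatives, the highest being 0.352). The volume-regulated channel subunits Lrrc8c (-0.08, adjusted p = 0.807) and Lrrc8d (0.22, adjusted p = 0.434) were not called, and of the 9 release genes tested 1 was. Of 6 P2Y genes tested P2ry2, a receptor for ATP and UTP, was called higher from few reads. It had 79 counts over the reporter-null libraries and 3 over the Treg libraries. Per TMM-scaled library size, P2ry2 counts were 17.1 times as high (95% interval for counting error only, 5.63 to 84.5). Its adjusted p of 0.0494 became 0.282 on dropping Treg replicate 1, 0.196 on dropping Treg replicate 2 and 0.157 on dropping reporter-null replicate 1, and the 16 alternatives gave 0.00679 to 0.282. P2ry10 was at 114, 136 and 143 CPM in reporter-null libraries, against 258 and 177 CPM in Treg libraries (-0.73, adjusted p = 0.0589), and passed once reporter-null replicate 2 was dropped (0.0303) and with DESeq2 (0.00424), its 16 alternatives reaching 0.358. P2ry1, an ADP receptor, had 60, 122 and 92 counts in reporter-null libraries, against 22 and 0 counts in Treg libraries, with the Treg libraries far apart, and it was not called (adjusted p = 0.351). It was called when Treg replicate 1 was dropped (0.0267), its alternatives spanning 1.1e-10 to 0.532. P2ry14 (0.41, adjusted p = 0.558) was not called. The P2Y genes were listed by their P2ry symbols, and the ligands of P2ry10 and P2ry14 were not examined.

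Over the wider pathway, 84 genes besides the 10 were listed in the table and 64 were tested. Of these, 4 were higher (Acpp, P2ry2, Gja1 and Dpp9) and 3 lower (Art2a-ps, Art2b and Slc28a2), or 7 of 64 beside the 8.79% of all genes. The median log2 fold change was 0.02. Markers of other lymphocytes differed in both directions. The 3 gamma-delta T cell markers with a row summed to 42.9 to 58.2 CPM in reporter-null libraries and to 5.04 to 5.16 CPM in Treg libraries, and 1 of the 3, Blk, was called. Most of the reporter-null sum was Blk, at 36.8 to 54.3 CPM, against 2.01 and 3.75 CPM in Treg replicates 1 and 2. Zbtb16 (1.41, adjusted p = 0.172) and Sox13 (0.53, adjusted p = 0.912) were not called, and Sox13 overlapped. The 6 markers of innate lymphoid and NK cells summed to 1132 to 1375 CPM in reporter-null libraries and to 662 to 757 CPM in Treg libraries, and 2 of the 6, Id2 and Kit, were called. Most of that sum was Id2, at 1047 to 1249 CPM in reporter-null libraries and 559 to 657 CPM in Treg libraries. The other 4 were not called: Klrb1c (-0.90, adjusted p = 0.163) and Eomes (-1.20, adjusted p = 0.474) had lower values in every reporter-null library than in both Treg libraries, and Ncr1 (-0.32) and Il1rl1 (-0.004) overlapped. Cd4 was higher by 0.99 on the log2 scale (adjusted p = 0.00796). Of the CD8 T cell markers, Cd8a was at or under 0.542 CPM in every library. Cd8b1 was at 5.42, 3.41 and 7.34 CPM in reporter-null libraries, against 11.6 and 11.1 CPM in Treg libraries (-1.08, adjusted p = 0.118). The part of such cells in the levels of Dpp4 or Acpp was not tested.

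Within a group, genes can be ranked only per length, here CPM per kilobase of GENCODE M21 exons, an annotation that may differ from the one the authors used. In reporter-null cells Nt5e led (50.3 ± 2.04), followed by Adora2a (35.0 ± 9.88), Dpp4 (24.4 ± 1.98), Cd38 (22.6 ± 5.89), P2rx7 (19.7 ± 2.87), Entpd1 (12.9 ± 0.732), P2rx4 (7.84 ± 0.949), Adk (7.52 ± 0.672), Ada (3.21 ± 1.29) and Adora2b (0.664 ± 0.115; SD, n = 3). The libraries of Adora2a and Dpp4, of Dpp4 and Cd38, of Cd38 and P2rx7 and of P2rx4 and Adk overlapped, so that these neighbours are not ordered beyond their spread. In Treg cells the order was Adora2a (75.8 ± 17.1), Nt5e (50.7 ± 4.47), P2rx7 (20.1 ± 1.09), Entpd1 (18.5 ± 0.499), Cd38 (17.0 ± 1.45), Adk (15.7 ± 1.10), Dpp4 (12.2 ± 0.181), P2rx4 (9.47 ± 0.801), Ada (6.63 ± 2.71) and Adora2b (0.597 ± 0.0294; SD, n = 2), with Cd38 and Adk overlapping. Dpp4 thus stood at place 3 in reporter-null cells and place 7 in Treg cells, and Entpd1 at place 6 in reporter-null cells and place 4 in Treg cells.

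**Figure D4:**
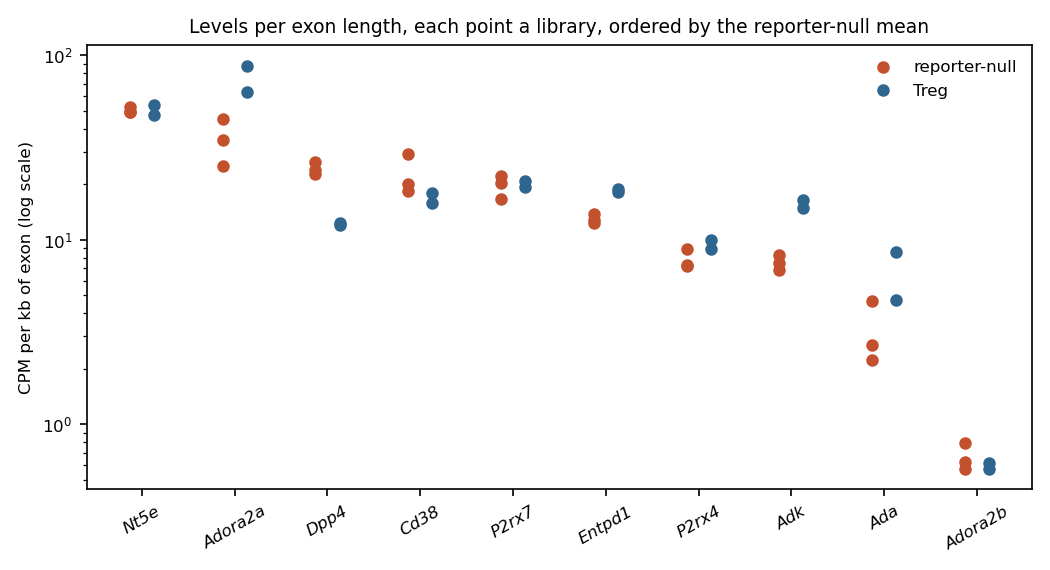
Level of each gene in CPM per kilobase of exon (vertical axis, log scale), each point a library, reporter-null in orange and Treg in blue, with genes ordered by the reporter-null mean. Levels span from under 1 for Adora2b to over 50 for Nt5e, and Adora2a is the highest gene in both Treg libraries.

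**Figure D5:**
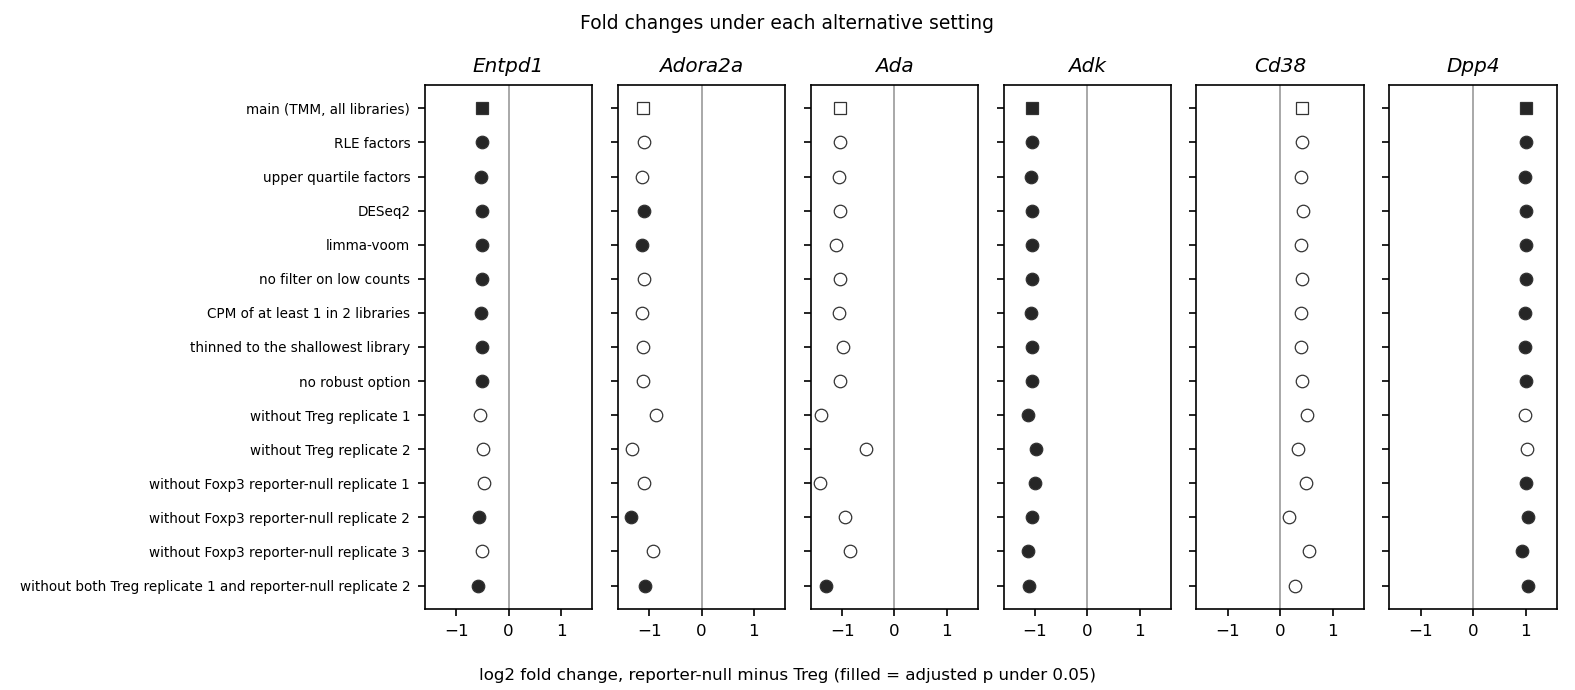
Log2 fold change, reporter-null minus Treg, of 6 genes under the reported fit (square) and the alternatives in scaling, test, filter, depth and libraries (circles). Filled symbols passed an adjusted p of 0.05. Replicate blocks are not shown, and with the block by title number neither Adk (adjusted p = 0.0694) nor Dpp4 (0.082) was called. Adk is filled in every setting shown and Dpp4 in all but those that leave 1 Treg library beside all reporter-null ones, while Cd38 passed in none and lies nearest to 0 without reporter-null replicate 2.

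For the gene with the smallest p in each direction, the genes nearest in pattern were sought among 9160 others by the distance between centred log2 CPM over the 5 libraries. Nearest to Dpp4 were Kif3a (distance 0.121), Carnmt1 (0.132) and Rcbtb2 (0.146). Nearest to Adk were Isg20 (0.119), Zfp53 (0.157) and Atp11b (0.163).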

How the data were processed

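Per the labels' protocols, RNA from TRIzol lysates was amplified (SMART-Seq v4), made into libraries (KAPA Hyper Prep) and sequenced in pairs on an Illumina HiSeq. The authors deposited raw whole-number counts per gene symbol in 1 table. The submitters' processing notes name DESeq, with no role. The aligner, build, annotation, strand setting and handling of shared reads were not given in the sources used here. No column was unmatched to a sample. The 4 rows without a symbol (0.0034% to 0.00492% of counts) were left out. Replicates differed beyond sampling noise (chi-square per degree of freedom 21.3 to 91.2).

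The 10 genes and all lists were chosen with earlier results of these data known, and 1 list gene is not reported here. In R 4.3.3, filterByExpr (minimum count 10, total 15) left 14164 genes, and reporter-null and Treg libraries were compared with edgeR 4.0.16 (TMM factors, robust quasi-likelihood F test, Benjamini-Hochberg adjustment, threshold 0.05), with no covariate. The common biological coefficient of variation was 0.401. The SE is the fold change over the square root of F. Named besides the 10 genes were all called genes of 9 pathway lists and up to 3 of the most abundant others per list, plus the nearest genes in pattern (prior count 2, average log2 CPM of at least 3). Camkk2, Slc28a2b, Cd3e, Cd4, Cd8a, Cd8b1, Blk, Id2, Kit, Klrb1c, Eomes, Ncr1, Il1rl1, Foxp3, Thy1 and Adora3 are named outside that rule. So are Cd3d, Cd3g, Cd5, Cd28, Jchain, Cd79b, Epcam, Sox13 and Zbtb16. Tried as alternatives were DESeq2 1.42.0, limma-voom (limma 3.58.1), upper quartile or RLE factors, other filters, thinned counts, a fit without the robust option, left-out libraries and replicate blocks. Exact permutation tests used scipy 1.17.1. Reads carry no molecular identifiers, so intervals on counts cover counting error only. Sequences are from RefSeq (GRCm38.p6), matched by symbol.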

Additional observations from a re-analysis of the deposited data

How the results depend on the processing

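Of the 10 genes, Adk, Entpd1, Adora2a, Ada, P2rx4, Dpp4 and Cd38 kept their direction in all 16 alternatives; Nt5e and P2rx7 kept theirs in 13 and Adora2b in 15, with fold changes near 0. Lrrc8c and Slc28a1, also near 0, turned to 0.04 and 0.12 without Treg replicate 2. Adk was called in 15, Dpp4 in 13, Entpd1 in 10, Adora2a in 5 and Ada in 2. Against 1245 called genes over the table with all libraries, leaving out 1 library gave 341 (Treg replicate 1) to 2035 (reporter-null replicate 2), with 405 on dropping Treg replicate 2 and 467 on dropping reporter-null replicate 1, and 0 to 1 of the 10 genes higher and 1 to 3 lower, and 1 to 10 wider pathway genes higher and 2 to 7 lower. Fits with 1 Treg library assume that it varies like the reporter-null libraries. DESeq2 called 2325 genes, with 12 wider pathway genes higher and 6 lower. Leaving out Treg replicate 1 together with reporter-null replicate 2, 2152 genes were called, 4 of the 10 were lower, and 9 wider pathway genes were higher and 5 lower. The cause was not tested.

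With a replicate block by title number 24 genes were called, with 0 of the 10 higher and 0 lower, and 1 wider pathway gene higher and 0 lower. In this fit 4 of the 10 and 17 wider pathway genes had an unadjusted p under 0.05. The share over all genes at that threshold was not counted for this fit. Deviations of libraries with equal title numbers correlated at -0.511 and -0.602. By the number in the descriptions, Treg replicate 1 goes with reporter-null replicate 2 and Treg replicate 2 with reporter-null replicate 3, and the correlations were 0.602 and 0.481. A block by that number called 1399 genes, 1 of the 10 higher and 3 lower (Adora2a, adjusted p = 0.000521, Ada, 0.0329, and Adk, 0.00127; Entpd1 was no longer called, at 0.137), and 3 wider pathway genes higher and 3 lower. The 2 Treg libraries deviate from their group mean by equal amounts with opposite sign. The correlation of 0.602 is thus -0.602 with its sign turned, and these correlations cannot decide between the pairings. In each block fit the unpaired library, reporter-null replicate 3 by title and reporter-null replicate 1 by description, had a block of its own. That library thus added nothing to the estimated group difference. The libraries share only a number, with 2 pairs, so neither block is used. With 44 counts over the Treg libraries, depth limits Adora2b.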
